A study of Danio rerio with 4 samples.

Results

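The genes described here encode transcription factors that set up skeletal muscle in the zebrafish embryo: the myogenic regulatory factors myf5, myf6, myod1 and myog, the Mef2 factors mef2ca, mef2cb, mef2d and mef2aa, and the paired-box factors pax3a and pax7a. They were chosen by name, as the gene lines whose symbol equals one of these 10, out of 32512 gene lines in the deposited table. All 10 names had a gene line, 7 carried values and 3 (myf6, myod1 and myog) were listed at 0 in every library. Levels were measured by RNA sequencing of whole embryos, taken 48 hours post fertilisation (hpf) from the Tübingen strain, a wild type. Embryos of the first group had received a morpholino against hace1 (hace1 MO), and embryos of the other group a standard control morpholino (control MO). The study's title names the knock-down of hace1, a ubiquitin ligase gene known as a tumour suppressor, and the question is how gene expression differs between these groups.

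A morpholino is a synthetic antisense oligomer that pairs with RNA and can block translation or splicing. The hace1 oligomer was directed, per the labels, at a splice site in the stretch that encodes the catalytic HECT domain, ahead of the cysteine on which ligase activity depends. Both oligomers are printed because they define the groups, 5′ to 3′.
hace1-HECT morpholino: ccctcgaactgttagacagaataaa
standard control morpholino: cctcttacctcagttacaatttata
Each is 25 bases long. They limit the groups as models, since a morpholino acts in every cell of the embryo and its effect is transient, and uninjected embryos and a second hace1 oligomer are not analysed here.

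In vertebrate muscle development, Pax3 and Pax7 mark the cells that will become muscle and keep a pool of progenitors. Myf5 and MyoD commit those cells to the muscle lineage, and myogenin and Myf6 (Mrf4) act later in differentiation, each as a basic helix-loop-helix factor bound to an E protein. Mef2 factors bind the same muscle promoters and enhancers, act together with the helix-loop-helix factors, and are held back by class IIa histone deacetylases. Several of these genes also work outside skeletal muscle: mef2ca in the heart and in the neural crest cells of the face, mef2d and mef2aa in neurons, and pax3a and pax7a in the dorsal neural tube and the neural crest.

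Each group had 2 libraries, A and B. Each library was a pool of 3 RNA samples of about 100 embryos. Estimated gene counts summed to 9856173 and 10413981 in the hace1 MO libraries, against 5192490 and 8596019 in the control MO libraries. The total RNA of hace1 was 13.7 and 13.5 CPM (counts scaled to a shared library total) in hace1 MO libraries and 18.6 and 13.5 CPM in control MO libraries (log2 fold change -0.19, standard error (SE) 0.22; limma-voom, adjusted p = 0.647). A total count need not change under a splice-blocking oligomer, so the labels were not checked by it. Of all gene lines 59.3% were at 0 throughout, so a gene at 0 is said only to be listed at 0. The libraries were sequenced 2 to a chip. If the libraries of a group shared a chip, chip and morpholino cannot be told apart.

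Myf5 and mef2ca were higher in hace1 morphants, by 2.36-fold and 1.77-fold, and no quantified gene of the group was called lower. The other 5 quantified genes, mef2cb, mef2d, mef2aa, pax3a and pax7a, did not pass the test. The called genes were 2 of 7 at a Benjamini-Hochberg adjusted p below 0.05, where 2.76% of the 10832 tested genes were called and 1.38% were called higher. The members were chosen with earlier results of these data known, so these shares are a description only. The median log2 fold change of the 7 was -0.15, against 0.01 for all tested genes, with 5 of the 7 below 0. When genes over 1% of a library were left out of the scaling, the same 2 genes were called, the median of the 7 was -0.27 and that of all tested genes was -0.10, with 369 of 482 calls lower rather than 150 of 299. In 3 of the 7 the libraries of the groups did not overlap, where 53.6% of all tested genes showed no overlap. These are whole-embryo RNA levels, in which a change in the number of cells of a type and a change in RNA per cell cannot be told apart. No label says that the pools came from separate clutches, so the spread behind each p-value is that of pooled libraries and could be technical.

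**Figure D1:**
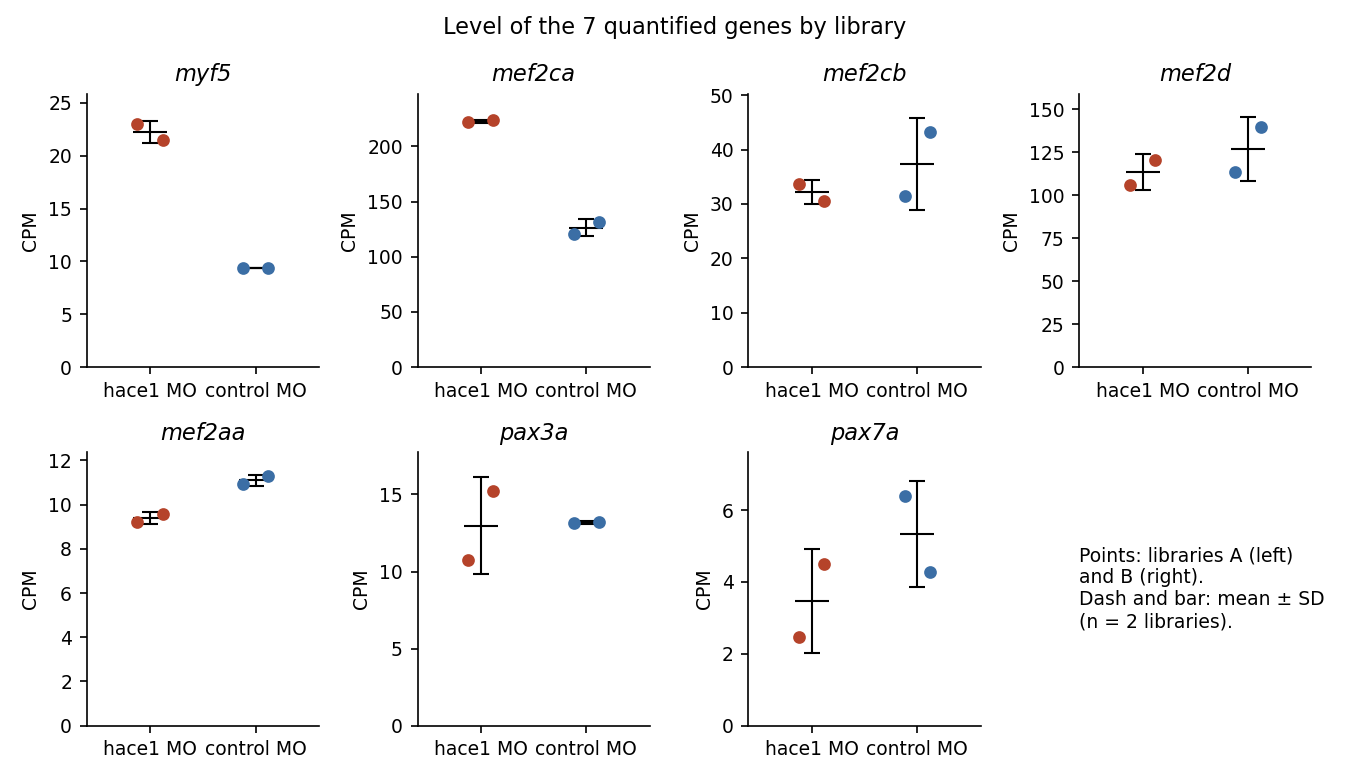
Level of each of the 7 quantified genes in CPM (y axis, from 0) in each library, with hace1 MO on the left and control MO on the right of each panel; points are libraries A and B, and the dash and bar give the mean ± SD (n = 2 libraries). The groups stand apart in myf5, mef2ca and, by a small distance, mef2aa, and overlap in the other 4.

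Myf5 is the commitment factor that opens the muscle programme, and it was the gene of this family with the largest fold change. It had 213 and 212 estimated counts in hace1 MO libraries, against 54.0 and 80.5 in control MO libraries. On the CPM scale these were 23.0 and 21.5 in hace1 MO and 9.34 and 9.36 in control MO. Both hace1 MO libraries were thus more than 2 times as high as either control MO library, and the groups did not overlap. The means were 22.2 ± 1.05 CPM in hace1 MO and 9.35 ± 0.0135 CPM in control MO (SD; n = 2). The small control MO SD rests on 2 libraries of 54.0 and 80.5 counts, too few to give a reliable spread. The log2 fold change was 1.24 (SE 0.21, 95% interval 0.79 to 1.69; limma-voom, adjusted p = 0.0157). The authors' deposited log2 table, centred on each gene's median over the libraries, holds 0.70 and 0.60 for hace1 MO and -0.62 and -0.60 for control MO. The call was lost when a hace1 MO library was left out, while the size stayed: the log2 fold change was 1.19 without hace1 MO library A (adjusted p = 0.356) and 1.29 without hace1 MO library B (adjusted p = 0.389), where the lone library is assumed to vary like the others.

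The myf5 gene (ENSDARG00000007277) lies on the plus strand of Zv9 chromosome 4, from 20676918 to 20680797, with 3 exons and a single listed transcript. All 3 exons were above 0 in log2 fold change, from 1.14 to 1.56, and exon 3, the longest at 852 bases, was called on its own (adjusted p = 0.0457 over all exons tested). The last exon held 65.0% and 66.1% of the gene's exon counts in hace1 MO libraries and 62.3% and 68.2% in control MO libraries, so the groups overlapped in the share of this exon. The nearest tested genes beside myf5 were not called. The nearest on the side of lower coordinates, the ribosomal protein gene rps16, had a log2 fold change of 0.20 (adjusted p = 0.578). The nearest on the other side, ppfia2, which encodes a liprin of the synapse, was at -0.73 (adjusted p = 0.0542). The myf6 gene lies between rps16 and myf5, from 20653483 to 20656633, and was listed at 0.

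Mef2ca encodes the Mef2c factor best known for heart muscle, skeletal muscle and the facial skeleton, and it was the most abundant member per length in hace1 MO. It had 222 and 224 CPM in hace1 MO libraries, against 121 and 132 CPM in control MO libraries. The groups did not overlap, and the hace1 MO libraries lay within a few CPM of each other. The means were 223 ± 1.51 CPM in hace1 MO and 126 ± 7.82 CPM in control MO (SD; n = 2). The log2 fold change was 0.82 (SE 0.16, 95% interval 0.47 to 1.18; limma-voom, adjusted p = 0.0356). In the authors' deposited log2 table the gene is at 0.38 and 0.39 in hace1 MO and at -0.52 and -0.38 in control MO. The log2 fold change was 0.83 without hace1 MO library A (adjusted p = 0.436) and 0.81 without hace1 MO library B (adjusted p = 0.538), so the size stayed and the call did not.

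The mef2ca gene (ENSDARG00000029764) spans 45064986 to 45175629 on the minus strand of chromosome 10 (Zv9), with 12 exons and 8 listed transcripts. All 9 exons with enough counts to test had a log2 fold change above 0, from 0.41 in exon 10 to 1.71 in exon 4. None was called on its own. Exon 2 reached the count needed for testing only in the hace1 MO libraries (14.7 and 15.6 counts, against 5.07 and 4.58 in control MO). The filter used unscaled counts and the hace1 MO libraries were deeper, so it favoured exons high in hace1 MO. In exon 8, not tested, the groups overlapped (0.390 and 0.393 CPM in hace1 MO, 0.243 and 0.582 CPM in control MO). Exon 12, the last, is 5364 bases long and makes up 75.2% of the exonic length. It held 87.0% and 86.8% of the exon counts in hace1 MO libraries and 89.1% and 87.9% in control MO libraries. The estimate for the whole gene therefore rests mostly on this exon, whose own log2 fold change was 0.79 (SE 0.23). Among its nearest tested neighbours, cetn3 was at -0.12 (adjusted p = 0.744) and rasa1b at -0.12 (adjusted p = 0.780), and neither was called.

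**Figure D2:**
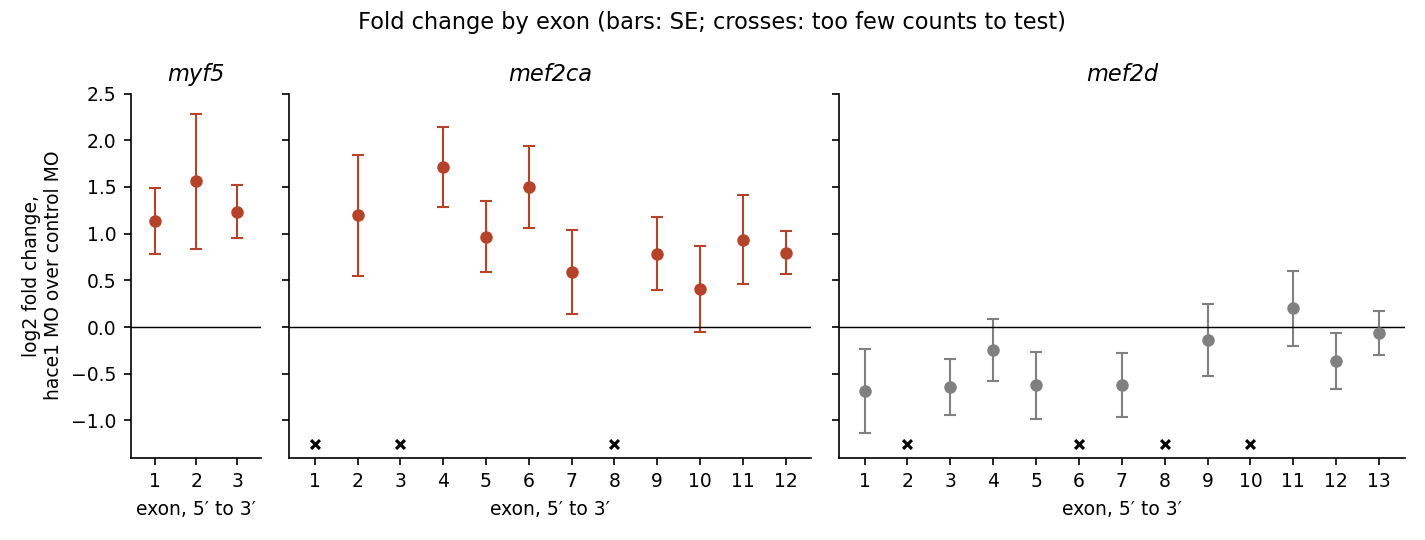
Log2 fold change of hace1 MO over control MO (y axis) for each exon of myf5, mef2ca and mef2d, numbered 5′ to 3′ (x axis); bars are SE and crosses mark exons with too few counts to test. All 3 myf5 exons and all 9 tested mef2ca exons lie above 0, while 1 of the 9 tested mef2d exons does. Exon 2 of myf5 and exon 2 of mef2ca reached the count needed for testing only in the hace1 MO libraries.

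Mef2cb is the second zebrafish copy of mef2c, and unlike mef2ca it was not called. It had 33.7 and 30.6 CPM in hace1 MO libraries, against 31.4 and 43.3 CPM in control MO libraries. The groups overlapped, with control MO library B alone at the top. The log2 fold change was -0.22 (SE 0.19, 95% interval -0.63 to 0.20; limma-voom, adjusted p = 0.540). It was 0.02 without control MO library B and -0.43 without control MO library A. The gene (ENSDARG00000009418) lies on the minus strand of chromosome 5, from 49966161 to 50043000. Its last exon held 39.3% and 31.4% of the exon counts in hace1 MO libraries and 23.5% and 29.4% in control MO libraries, and its exon use did not pass the test given further on. The ratio of mef2ca to mef2cb estimated counts was 6.58 and 7.32 in hace1 MO libraries and 3.85 and 3.05 in control MO libraries, with no overlap. An exact permutation test over libraries gave p = 0.333 for this pair, the smallest it can give here.

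Mef2d, a Mef2 factor of muscle and brain, had 106 and 121 CPM in hace1 MO libraries, against 114 and 140 CPM in control MO libraries, and the groups overlapped. The log2 fold change was -0.15 (SE 0.17, 95% interval -0.53 to 0.22; limma-voom, adjusted p = 0.636). Mef2aa, one of the zebrafish copies of mef2a, had 9.19 and 9.58 CPM in hace1 MO libraries, against 10.9 and 11.3 CPM in control MO libraries. Its groups did not overlap, with hace1 MO the lower, yet the difference did not pass the test (log2 fold change -0.25, SE 0.22, 95% interval -0.72 to 0.23; limma-voom, adjusted p = 0.544). Mef2d (ENSDARG00000040237) lies on chromosome 16, from 31301062 to 31422705 on the minus strand, and mef2aa (ENSDARG00000031756) on chromosome 18, from 22968130 to 23136788 on the plus strand (Zv9).

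Pax3a, the progenitor factor of muscle precursors and neural crest, had 10.7 and 15.2 CPM in hace1 MO libraries, against 13.1 and 13.2 CPM in control MO libraries. The hace1 MO libraries lay on either side of the control MO libraries. Its log2 fold change was -0.04 (SE 0.23, 95% interval -0.54 to 0.46; limma-voom, adjusted p = 0.934), and it was 0.20 without hace1 MO library A. Pax7a, which marks muscle progenitors and xanthophore precursors, had the fewest counts, at 2.46 and 4.50 CPM in hace1 MO libraries and 6.38 and 4.29 CPM in control MO libraries. These rest on 22.9 and 44.5 estimated counts in hace1 MO and 36.9 in each control MO library, and hace1 MO library B lay between the control MO libraries. Its log2 fold change was -0.60 (SE 0.36, 95% interval -1.38 to 0.18; limma-voom, adjusted p = 0.341), with an interval that holds both no change and a fall of more than 1 on the log2 scale. With a library left out it ran from -1.05 (without hace1 MO library B) to -0.19 (without hace1 MO library A), and it was -0.93 without control MO library B. Pax3a (ENSDARG00000010192) lies on chromosome 2, from 47581097 to 47633036 on the plus strand, and pax7a (ENSDARG00000005173) on chromosome 11, from 42366287 to 42371379 on the minus strand (Zv9).

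**Figure D3:**
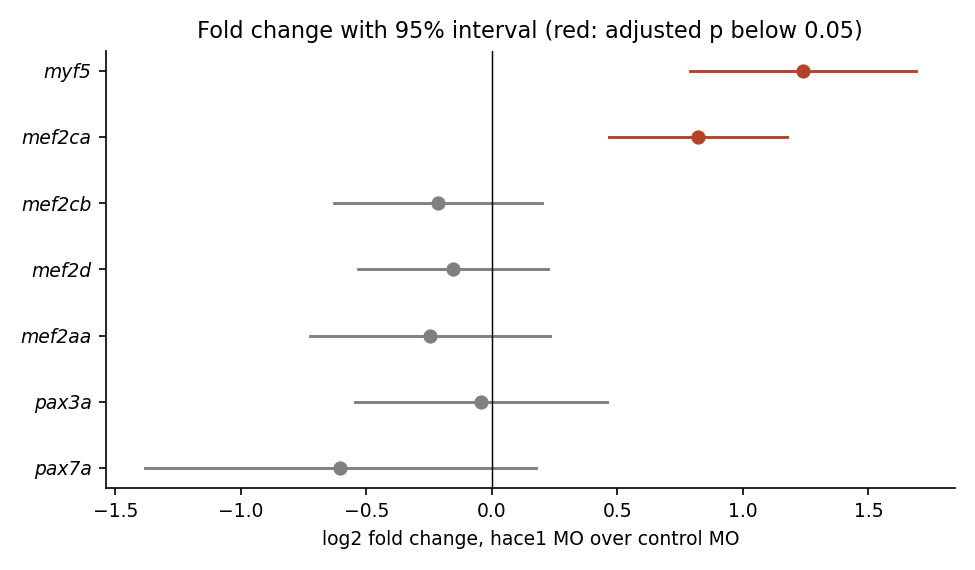
Log2 fold change of hace1 MO over control MO (x axis) for the 7 quantified genes, with the 95% interval from limma-voom as a line; red marks an adjusted p below 0.05. The intervals of myf5 (0.79 to 1.69) and mef2ca (0.47 to 1.18) lie above 0, and the other 5 include 0.

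The remaining helix-loop-helix factors could not be compared. Myod1 (ENSDARG00000030110, chromosome 25, 32264524 to 32266764, minus strand), the commitment factor that acts beside myf5, was listed at 0 in all libraries. The same holds for myog (ENSDARG00000009438, chromosome 11, 23429775 to 23432785, minus strand), which drives terminal differentiation, and for myf6 (ENSDARG00000029830, chromosome 4, plus strand). None of the 3 had a transcript line. Of all 19279 gene lines at 0, 3 had a transcript line, while every gene above 0 had one. Of 4 further family members, pax7b was quantified, at 27.9 and 32.8 CPM in hace1 MO libraries and 24.8 and 40.2 CPM in control MO libraries (log2 fold change -0.09; limma-voom, adjusted p = 0.852). Pax3b, mef2b and the other mef2a copy, named MEF2A in the table, were listed at 0.

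Levels were set side by side per kilobase of exon. The order depends on the listed exons, which came to 7134 bases in mef2ca, 1622 in mef2cb and 609 in pax7a. Whether these gene models are complete was not checked. In CPM, without regard to length, mef2ca was above mef2cb and pax7a was the lowest of the quantified genes in every library. In hace1 MO, mef2ca came first at 31.2 ± 0.212 CPM per kilobase, then mef2cb at 19.8 ± 1.35, myf5 at 15.7 ± 0.743, mef2d at 15.7 ± 1.43, pax7a at 5.71 ± 2.37, pax3a at 4.78 ± 1.16 and mef2aa at 3.63 ± 0.105 (SD, n = 2 libraries). The neighbours myf5 and mef2d overlapped, as did pax7a and pax3a, and the other neighbours were apart. In control MO, mef2cb came first at 23.0 ± 5.17 CPM per kilobase, then mef2ca at 17.7 ± 1.096, mef2d at 17.5 ± 2.55, pax7a at 8.76 ± 2.43, myf5 at 6.61 ± 0.00955, pax3a at 4.86 ± 0.0307 and mef2aa at 4.29 ± 0.0987. Here only mef2ca and mef2d overlapped among neighbours. An SD of 2 libraries is a poor measure of spread, above all at the low counts of myf5, pax3a and mef2aa in control MO. Myf5 had rank 3 in hace1 MO and rank 5 in control MO, and mef2ca had rank 1 in hace1 MO and rank 2 in control MO.

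Ratios between members within a library do not depend on how libraries were scaled. The ratio of myf5 to mef2ca counts was 0.104 and 0.0959 in hace1 MO libraries and 0.0774 and 0.0710 in control MO libraries, a difference in mean log2 ratio of 0.43. The ratio of mef2ca to mef2d was 2.09 and 1.85 in hace1 MO libraries and 1.06 and 0.942 in control MO libraries, a difference of 0.98. The ratio of myf5 to pax3a was 2.14 and 1.41 in hace1 MO libraries and 0.713 and 0.708 in control MO libraries. In each of these the groups stood apart, with hace1 MO the higher. Of 21 pairs compared, 12 did not overlap: all 6 with myf5, all 6 with mef2ca (the pair of both counted in each) and the pair of pax3a and pax7a. Pairs share members, so these are not separate results and mostly restate the myf5 and mef2ca differences. Pairs of other genes were not compared, and of single tested genes 53.6% showed no overlap. With 2 libraries against 2, an exact two-sided permutation test over libraries gives p = 0.333 at the smallest, and these 12 pairs had that value (0.583 after adjustment over the 21), so no pair could pass.

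Exon use, meaning whether exons of a gene change by unequal amounts, was tested in the 7 quantified genes. None was called by limma's diffSplice, all at an adjusted p of 1, and none was at an unadjusted p below 0.05. Over all 6949 genes tested for exon use, 0 were called (0%), with 253 at an unadjusted p below 0.05. Of the transcripts of these genes, 20 had shares that could be tested as each transcript's deposited share of its gene. No transcript was called among them or among all 13602 tested (0%), and 3 of the 20 and 1027 of the 13602 were at an unadjusted p below 0.05. No source used here says how the shares were derived, and they do not sum to 100% within a gene: the sums ran from 82.8% to 90.0% in mef2d and from 35.4% to 46.3% in mef2aa.

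The transcript with the largest deposited share of mef2d, mef2d-001, had the smallest unadjusted p of the 20. The share of mef2d-001 was 73.3% and 76.2% in hace1 MO libraries and 63.6% and 63.1% in control MO libraries. The share of mef2d-201 was 7.80% and 11.0% in hace1 MO libraries and 18.2% and 15.6% in control MO libraries. In neither did the groups overlap, where 38.1% of all tested transcripts showed no overlap. On the log2 odds scale mef2d-001 differed by 0.76 (SE 0.14; limma, adjusted p = 0.622) and mef2d-201 by -0.92 (SE 0.25; limma, adjusted p = 0.654), so neither passed the adjustment. When shares were instead taken from the exon counts listed under each transcript, mef2d-001 had 86.7% and 84.7% of the gene in hace1 MO libraries and 73.4% and 76.2% in control MO libraries. The last exon held 69.23% and 72.95% of mef2d exon counts in hace1 MO libraries and 66.31% and 67.06% in control MO libraries. Of the listed transcripts only mef2d-001 reaches the end of that exon. The part of last-exon counts in its share was not tested. The other transcript past the unadjusted threshold was mef2ca-004, at 2.11% and 3.16% of mef2ca in hace1 MO libraries and 1.09% and 0.449% in control MO libraries (difference 1.07 on the log2 odds scale, SE 0.30; limma, adjusted p = 0.654).

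**Figure D4:**
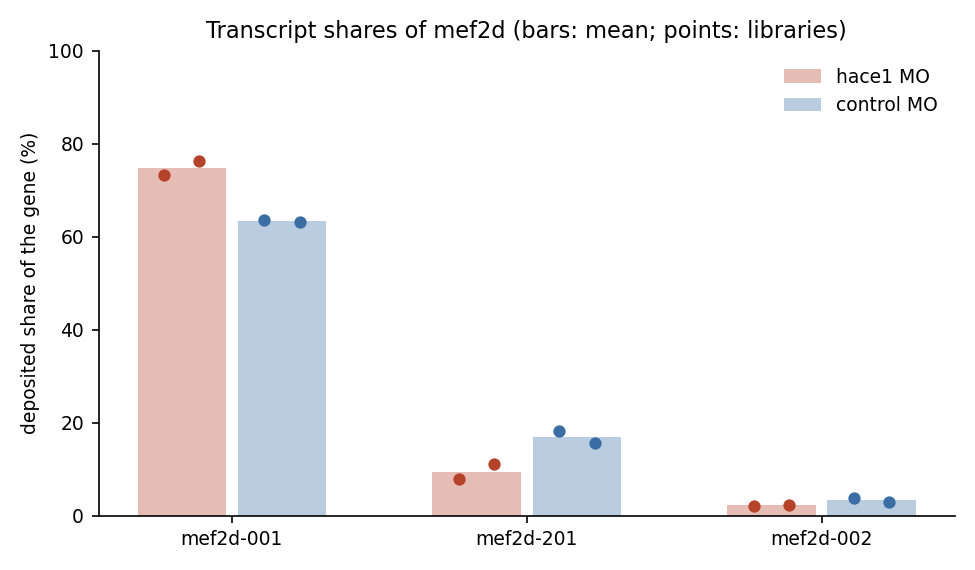
Deposited share of the mef2d gene, in percent (y axis), for the 3 transcripts with the largest shares, with hace1 MO left of control MO; bars are means and points are libraries. The mef2d-001 share averaged 74.8% in hace1 MO and 63.3% in control MO, and neither it nor the others passed the adjusted test.

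The mef2d transcripts differ in a pair of neighbouring exons of like size that never occur in the same listed transcript. Vertebrate Mef2 genes are known for alternative exons of this kind next to the part that encodes the DNA-binding domain, one of which is typical of muscle. The upstream exon (135 bases, 31348987 to 31349121) belongs to mef2d-002 and mef2d-201, and the downstream one (138 bases, 31348762 to 31348899) to mef2d-001 and mef2d-202. The downstream exon held 4.38 and 4.89 estimated counts in hace1 MO libraries and 2.07 and 3.20 in control MO libraries. As a share of the pair this was 16.4% and 14.9% in hace1 MO and 8.54% and 8.14% in control MO. The groups did not overlap, but the exact (Clopper-Pearson) 95% intervals of the summed counts, 7.22% to 27.0% in hace1 MO and 2.63% to 17.6% in control MO, overlapped, and they cover counting error only. The exact permutation test over libraries gave p = 0.333, the smallest it can give. These exon shares lie far below the deposited mef2d-001 shares of the whole gene. The exon pair and the deposited shares thus differ on which form is the commoner. The part of the longer last exon in this was not tested. In mef2aa the corresponding exons held at most 6.84 counts per exon and library. The downstream share was 80.9% and 59.8% in hace1 MO and 28.95% and 20.2% in control MO (exact permutation test, p = 0.333). The intervals of the summed counts, 30.8% to 89.1% and 5.04% to 53.8%, overlapped. The downstream mef2d exon held at most 4.89 counts, so the counts of both genes are too few for a reading.

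By likeness of profile, the 5 tested genes closest to myf5 were vrk2, blf, foxa, slc7a9 and cyp2aa11. Likeness was the root mean square difference in centred log2 CPM over the 4 libraries, and it ran from 0.043 for vrk2 to 0.076 for cyp2aa11. Vrk2, a kinase gene, had 8.80 and 7.70 CPM in hace1 MO libraries and 3.21 and 3.32 CPM in control MO libraries (log2 fold change 1.31; limma-voom, adjusted p = 0.0412). Cyp2aa11, a cytochrome P450 gene, was at 1.41 (adjusted p = 0.0342). Blf at 1.30 (adjusted p = 0.0524), foxa at 1.15 (adjusted p = 0.0527) and slc7a9 at 1.36 (adjusted p = 0.129) did not pass. Likeness over 4 libraries is a description only, and the 5 genes lie on 5 chromosomes other than that of myf5. These genes were picked by the same values, so fold changes near that of myf5 follow from the choice. Their adjusted p-values are not separate support.

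Upstream of the muscle factors act homeobox proteins of the sine oculis type, Eya proteins, Meox1, Pbx cofactors and T-box factors. Of 19 gene lines in this list, 11 were listed at 0 and 8 were tested. None was called, 7 of the 8 were above 0, and the median log2 fold change was 0.35. Six4a, a homeobox factor of that type whose mouse counterpart is known to bind enhancers of muscle genes, had 0.76 (limma-voom, adjusted p = 0.0513), and the most abundant, pbx4 and pbx2, had 0.25 (adjusted p = 0.581) and 0.61 (adjusted p = 0.0897). The partners of the helix-loop-helix factors, E proteins and the Id and Twist inhibitors, gave 0 calls among 6 tested genes of 16 lines, with a median of 0.05. When genes over 1% of a library were left out of the scaling, the median was -0.07. In that setting 1 of the 6 was called lower, as were 369 of all tested genes. Among the partners, the E protein genes tcf12 and tcf3b had 0.42 (adjusted p = 0.195) and 0.02 (adjusted p = 0.946).

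Genes that restrain or assist Mef2 and the helix-loop-helix factors held 2 calls, both lower in hace1 MO, among 15 tested genes of 18 lines. Over all 10832 tested genes 1.38% were called lower. The median log2 fold change of the 15 was -0.23. When genes over 1% of a library were left out of the scaling, 4 of the 15 were called lower and their median was -0.34. In that setting 369 of all tested genes were called lower. Hdac4, a class IIa histone deacetylase that binds Mef2 factors and represses their targets, had 13.1 and 14.3 CPM in hace1 MO libraries and 30.3 and 26.8 CPM in control MO libraries. It fell to 0.485 of the control MO level, with no overlap (log2 fold change -1.04, SE 0.19; limma-voom, adjusted p = 0.0254). Camk2d2, a calcium and calmodulin dependent kinase gene of the family that can release Mef2 from these deacetylases, had 38.2 and 34.8 CPM in hace1 MO libraries and 55.8 and 63.5 CPM in control MO libraries. Its log2 fold change was -0.71 (SE 0.17; limma-voom, adjusted p = 0.0464), and the call was lost without hace1 MO library A (adjusted p = 0.435) and without hace1 MO library B (0.556). It was also lost with no filter on low counts (adjusted p = 0.0566), with limma-trend (0.0531) and on the authors' log2 values (0.0590). The other class IIa genes were hdac5 at -0.74 (adjusted p = 0.0765), hdac9b at -0.39 (adjusted p = 0.251) and HDAC7 at -0.23 (adjusted p = 0.792), and none of these passed. Hdac4 had -0.99 without hace1 MO library A (adjusted p = 0.404) and -1.11 without hace1 MO library B (adjusted p = 0.538).

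Downstream, genes of the contractile and excitable apparatus of muscle held 2 calls, both higher, among 32 tested genes of 45 lines. Over all tested genes 1.38% were called higher. The median log2 fold change of the 32 was 0.35, with 29 above 0. When genes over 1% of a library were left out of the scaling, 26 of the 32 were above 0, with a median of 0.23. In that setting 3 of the 32 were called higher, as were 113 of all tested genes. In this list 13 lines were listed at 0, among them acta1b, ckma and actc1b. The intermediate filament gene desma had 465 and 460 CPM in hace1 MO libraries and 266 and 269 CPM in control MO libraries (log2 fold change 0.79, SE 0.17; limma-voom, adjusted p = 0.0398). Mybpc2b, which encodes a myosin-binding protein of fast muscle, had 312 and 344 CPM in hace1 MO libraries and 159 and 204 CPM in control MO libraries (log2 fold change 0.87, SE 0.18; limma-voom, adjusted p = 0.0388). The list's summed level was 153414 and 142661 CPM in hace1 MO libraries and 99476 and 127958 CPM in control MO libraries. Its largest parts were mylpfa, atp2a1, pvalb2 and ckmb, none of them called (limma-voom, adjusted p = 0.715, 0.104, 0.421 and 0.0812). The control MO libraries differed widely in pvalb2, at 9266 and 20376 CPM. The part that the amount of muscle RNA has in the myf5 and mef2ca values was not tested. Genes of myoblast fusion and differentiation gave 0 calls among 8 tested genes of 17 lines, with a median of -0.08, where jam3b, a fusion receptor gene, had 0.10 (adjusted p = 0.766) and sox6, which represses the slow muscle programme, had -0.17 (adjusted p = 0.565).

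**Figure D5:**
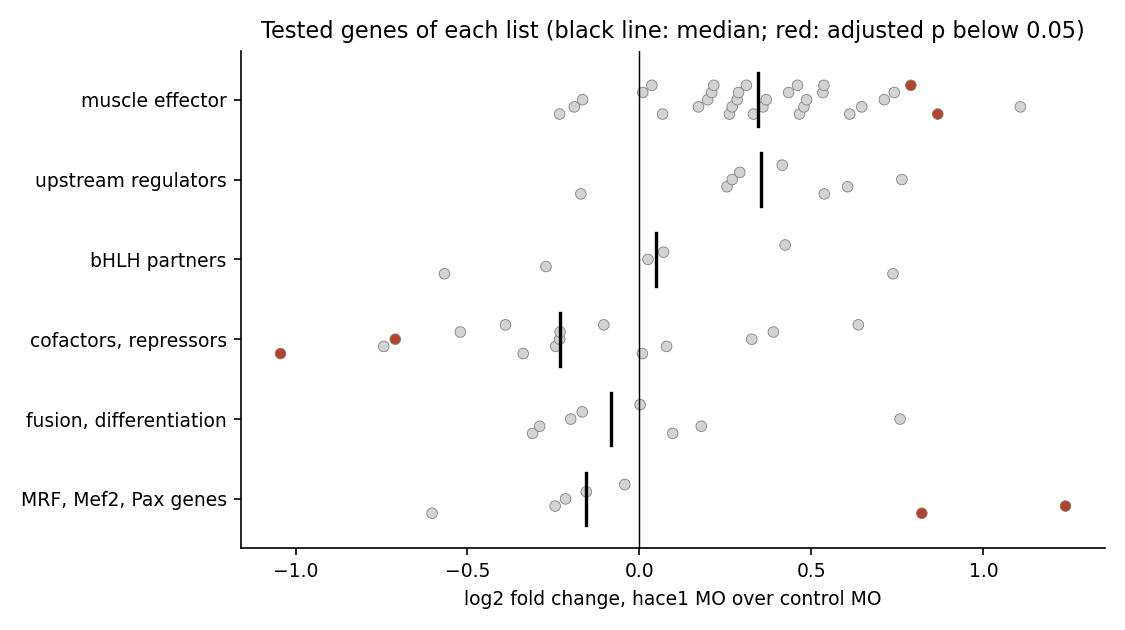
Log2 fold change of hace1 MO over control MO (x axis) for each tested gene, by list (rows); black lines are list medians and red points have an adjusted p below 0.05. Red points lie above 0 among the muscle effector genes and the factors described here, and below 0 among cofactors and repressors; the medians are 0.35, 0.35, 0.05, -0.23, -0.08 and -0.15 from top to bottom.

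Markers of the other tissues in which these genes act were read beside them. Heart markers, for which mef2ca is relevant, summed to 98.1 and 93.8 CPM in hace1 MO libraries and 83.1 and 82.3 CPM in control MO libraries, with 0 calls among 6 tested genes, 3 of them above 0 (myl7 at 0.38, adjusted p = 0.291, and tbx20 at -0.12, adjusted p = 0.726), while nkx2.5, vmhc and 4 more lines were listed at 0. Cartilage and head mesenchyme markers summed to 6687 and 7988 CPM in hace1 MO libraries and 4579 and 4744 CPM in control MO libraries. Of 6 tested, the cartilage matrix gene matn1 was called lower, with 9.71 and 11.3 CPM in hace1 MO libraries and 24.4 and 26.2 CPM in control MO libraries (log2 fold change -1.27, SE 0.20; limma-voom, adjusted p = 0.0111). Over all tested genes 1.38% were called lower. Most of the summed level was the collagen gene col2a1a, with 6532 and 7812 CPM in hace1 MO libraries and 4415 and 4573 CPM in control MO libraries (log2 fold change 0.67, adjusted p = 0.0985). Of the 6 genes 3 were above 0, with a median of 0.09 (-0.02 when genes over 1% of a library were left out of the scaling). The part of these tissues in the mef2ca difference was not tested.

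Neural crest and pigment cell markers, read beside pax3a and pax7a, summed to 625 and 677 CPM in hace1 MO libraries and 647 and 717 CPM in control MO libraries. None of 8 tested was called, 4 of the 8 were above 0 and the median log2 fold change was 0.04 (-0.07 when genes over 1% of a library were left out of the scaling). The most abundant were tfap2a at -0.22 (adjusted p = 0.480) and sox5 at -0.33 (adjusted p = 0.287), and 9 lines, sox10 and foxd3 among them, were listed at 0. Dorsal neural tube markers gave 0 calls among 2 tested (lmx1bb at 0.19, adjusted p = 0.569, and wnt1 at 0.25, adjusted p = 0.779), with sums of 30.1 and 28.2 CPM in hace1 MO libraries and 26.7 and 24.6 CPM in control MO libraries. Neuron markers, read beside mef2d and mef2aa, summed to 1527 and 1625 CPM in hace1 MO libraries and 1546 and 2040 CPM in control MO libraries. Of 9 tested, 2 were above 0, with a median of -0.16, and the forebrain neuron gene neurod6b was called lower, with 17.6 and 21.0 CPM in hace1 MO libraries and 34.2 and 34.5 CPM in control MO libraries (log2 fold change -0.83, SE 0.18; limma-voom, adjusted p = 0.0399). This was 1 of 9, where 1.38% of all tested genes were called lower. Like the myf5 and mef2ca calls, those of desma, mybpc2b, matn1 and neurod6b were lost when either hace1 MO library was left out, each keeping its sign, with adjusted p-values from 0.318 to 0.538.

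Called genes were unequally spread over exonic length, which bears on genes as different in length as myf5 and mef2ca. The tested genes were split by exonic length into 5 classes of equal size. In the shortest class, which holds myf5 (1415 bases) and pax7a (609 bases), the median log2 fold change was 0.06, with 42 genes called higher and 12 called lower. In the longest class, which holds mef2ca (7134 bases) and mef2d (7228 bases), the median was -0.12, with 10 called higher and 60 called lower. Myf5 thus moved in the commoner direction of its length class, and mef2ca in the rarer one. The part of length in either value was not tested.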

How the data were processed

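RNA was sequenced on an Ion Proton instrument from 4 libraries of whole embryos, put in groups by the morpholino that the labels name. Per the submitters' processing notes, the build was Zv9 and the tools included DESeq, Bowtie2 2.0.2, TopHat2 2.0.6 and cutadapt 1.2.1. No source used here names the counting program, strand setting or annotation release, so reads of overlapping or antisense genes cannot be told apart. The authors deposited estimated counts per gene and exon (95.4% of gene values above 0 were not whole, at a tolerance of 1e-06), the share of each transcript in its gene, and log2 values per gene in a separate table. For 98.9% of 12216 genes with a count of 1 or more in every library, the deposited log2 values equalled the centred log2 of size-factor scaled counts within 0.001. All 4 value columns matched a sample by name.

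Counts were scaled by the trimmed mean of M values (own implementation, trimming 30% and 5%), and CPM use these scaled sizes. Genes were kept if 2 or more libraries reached 10 counts (for a library of median size) and the total reached 15, which left 10832. These were tested with limma-voom (limma 3.58.1, R 4.3.3), with group alone in the model, and p-values were adjusted after Benjamini-Hochberg over all of them. Count models were not used, since the deposited counts are estimates stored inside an annotation file. Exon use was tested with diffSplice (exons with a count of 10 in at least 2 libraries), transcript shares with limma on log2 odds with an offset of 0.01, and single ratios by exact permutation (own implementation). The Clopper-Pearson intervals came from scipy 1.17.1, with estimated counts rounded to whole numbers. Of these steps only the gene-level limma-voom fit was run on simulated data. The changed genes there were drawn from well-counted genes, so a change in a gene counted as low as pax7a was not simulated. Depth ranged from 5192490 to 10413981 counts, and counting intervals cover counting error only.

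The members and the lists were chosen with earlier results of these data known. Lists were family paralogues, helix-loop-helix partners, upstream regulators, cofactors and repressors, fusion and differentiation genes, muscle effector genes, and markers of heart, neural crest and pigment cells, neurons, dorsal neural tube, and cartilage and head mesenchyme. Named were all members, the called genes of every list or, where none was called, the 2 of highest mean level, and the 5 genes closest to myf5. A few further genes (six4a, hdac5, hdac9b, HDAC7, col2a1a, some of those listed at 0, and neighbours of myf5 and mef2ca) were chosen after their values were seen. Alternatives were median-of-ratios scaling, scaling without genes over 1% of a library, no filter, limma-trend (prior count 2), the authors' log2 values, a replicate block, and each library left out. An alternative added after seeing the data took transcript shares from summed exon counts.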

Additional observations from a re-analysis of the deposited data

How the results depend on the processing

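The counts of called genes (299, with 149 higher and 150 lower) depended on the processing. Scaling without genes over 1% of a library gave 482 calls, 369 of them lower, and moved the median of all tested genes to -0.10. Calls in the lower direction were 97 with no filter and 88 on the authors' log2 values. With a library left out, totals ran from 6 to 2567, higher calls from 6 to 1265 and lower calls from 0 to 1302. The low end came without either hace1 MO library (10 without A, 6 without B) and the high end without a control MO library (1635 without A, 2567 without B). Over the 10 alternatives myf5 stayed between 1.13 and 1.29 on the log2 scale (adjusted p 2.4e-05 to 0.389) and mef2ca between 0.71 and 0.87 (1.01e-06 to 0.538). Both lost the call only without a hace1 MO library. The sign turned for pax3a (0.20 without hace1 MO library A) and for mef2cb (0.0183 without control MO library B), whose values with a library left out ran from -0.30 to 0.20 for pax3a and from -0.43 to 0.0183 for mef2cb, neither of them called, and pax7a was called without control MO library B. Calls in exon use and transcript shares stayed at 0 for the members under every alternative run, while exon use over all genes gave 582 calls without control MO library B. The cause of these shifts was not tested.

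The labels do not say whether libraries of the same letter were paired across groups. The correlation of A minus B between the groups was -0.0095 over the 6390 genes that averaged 100 counts or more, which cannot settle it. A replicate block gave 914 calls, 423 higher and 491 lower, with myf5 at 1.24 (limma-voom, adjusted p = 0.00017) and mef2ca at 0.82 (adjusted p = 0.0018). Their SE was larger than in the main fit, at 0.25 against 0.21 for myf5 and 0.20 against 0.16 for mef2ca. The smaller adjusted p-values thus came with wider estimates. Why they were smaller was not tested, and they are not read as stronger evidence. Pax7a and mef2aa rest on fewer than 100 estimated counts in every library, which limits what could be detected. The limit also holds for myf5 in both control MO libraries (54.0 and 80.5). It holds for pax3a in library A of each group (99.8 in hace1 MO and 75.8 in control MO).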
